A study of Homo sapiens with 6 samples.

Results

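Antisense long RNAs are transcripts read from the strand opposite to a named gene, and the annotation gives them that gene's symbol followed by -AS and a number. All probes whose symbol ended in -AS1, -AS2, -AS3 or -AS4 were taken, and the probe with the highest mean over the arrays stood for each symbol. This gave 478 antisense RNAs among 14884 genes with a named probe, of which 431 ended in -AS1, 32 in -AS2, 12 in -AS3 and 3 in -AS4. For 314 of them the sense gene, the symbol before the hyphen, also had a named probe. These 314 pairs hold 303 different sense genes, because 10 sense genes have more than 1 antisense RNA. For the other 164 the sense gene had no named probe and is not analysed here.

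The study asked how iron changes gene expression in ARPE-19, an established human cell line that arose from the retinal pigment epithelium, the pigmented layer beneath the photoreceptors. Cells were held at confluence in 1% serum for 4 weeks to differentiate and then moved to medium without serum. There 3 cultures received vehicle and are called untreated, and 3 received 250 µM FAC (ferric ammonium citrate, an iron salt) for 2 days. RNA of each culture was hybridised to 1 array, and values are log2 intensities, so a change of 1 is a doubling of intensity. The submitters describe the cultures as biological replicates of a single cell line, so the tests measure the spread between cultures of that line.

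Antisense RNAs are made in several ways. Some start beside the start of the sense gene and are read away from it, so that both share a stretch of promoter DNA. Others run into the sense gene from its 3′ end or lie wholly inside it, and these can pair with its transcript or meet its polymerase. Individual antisense RNAs have been described as repressing, stabilising or having no effect on their sense gene, and most are of low abundance.

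The windows around the starts of 4 antisense RNAs show these layouts. Each runs from 250 bases before to 50 bases after the annotated start, 5′ to 3′ on the strand of the antisense RNA, as RefSeq gives it for GRCh38.p14. Capitals mark bases that also lie in the same kind of window of the sense gene, read from the other strand. SBF2-AS1 is shown because it had the widest change among the antisense RNAs, and ENO1-AS1 because it fell and held under most settings. HHIP-AS1 and RASAL2-AS1 were added after their values were seen, because both share start DNA with a sense gene that fell. The windows are chr11:9758043-9758342 on the plus strand for SBF2-AS1, chr1:8878585-8878884 on the plus strand for ENO1-AS1, chr4:144645970-144646269 on the minus strand for HHIP-AS1 and chr1:178093944-178094243 on the minus strand for RASAL2-AS1.
SBF2-AS1: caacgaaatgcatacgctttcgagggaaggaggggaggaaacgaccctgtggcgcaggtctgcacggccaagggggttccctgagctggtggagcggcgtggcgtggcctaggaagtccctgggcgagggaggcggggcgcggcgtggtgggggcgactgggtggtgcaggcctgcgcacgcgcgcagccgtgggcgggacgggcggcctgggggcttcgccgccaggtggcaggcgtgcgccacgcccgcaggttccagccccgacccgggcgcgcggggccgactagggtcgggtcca
ENO1-AS1: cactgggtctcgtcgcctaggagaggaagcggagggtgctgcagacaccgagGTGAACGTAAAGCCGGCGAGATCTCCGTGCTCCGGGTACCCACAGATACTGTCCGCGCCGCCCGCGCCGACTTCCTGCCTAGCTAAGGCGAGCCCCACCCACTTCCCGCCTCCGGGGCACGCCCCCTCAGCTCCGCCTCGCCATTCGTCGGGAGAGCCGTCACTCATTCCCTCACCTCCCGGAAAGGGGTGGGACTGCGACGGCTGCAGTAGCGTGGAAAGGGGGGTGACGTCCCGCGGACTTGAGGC
HHIP-AS1: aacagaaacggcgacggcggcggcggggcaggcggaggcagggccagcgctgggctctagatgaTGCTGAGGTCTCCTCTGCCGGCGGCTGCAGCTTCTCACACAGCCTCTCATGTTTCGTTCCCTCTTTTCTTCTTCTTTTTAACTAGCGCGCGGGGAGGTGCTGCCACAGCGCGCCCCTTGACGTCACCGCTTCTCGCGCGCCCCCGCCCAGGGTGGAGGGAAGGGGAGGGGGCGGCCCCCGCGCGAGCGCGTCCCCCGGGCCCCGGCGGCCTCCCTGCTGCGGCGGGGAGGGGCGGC
RASAL2-AS1: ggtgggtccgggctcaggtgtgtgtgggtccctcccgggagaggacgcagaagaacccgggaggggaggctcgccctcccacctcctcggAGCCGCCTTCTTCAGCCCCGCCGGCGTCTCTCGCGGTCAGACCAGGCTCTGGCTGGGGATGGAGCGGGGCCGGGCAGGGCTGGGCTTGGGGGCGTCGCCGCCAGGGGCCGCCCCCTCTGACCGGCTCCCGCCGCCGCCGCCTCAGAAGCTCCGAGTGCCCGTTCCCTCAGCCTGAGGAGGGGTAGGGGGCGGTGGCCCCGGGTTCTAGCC

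The SBF2-AS1 window shares 0 bases with a window of SBF2, since this antisense RNA meets SBF2 at the 3′ ends of both transcripts. The ENO1-AS1 window shares 248 of its 300 bases with a window of ENO1, that of HHIP-AS1 shares 236 with HHIP, and that of RASAL2-AS1 shares 210 with RASAL2. RefSeq windows were matched for 367 of the 478 antisense RNAs, giving 418 windows with a median of 17 CG dinucleotides, against 14 over all 35116 windows. The SBF2-AS1 window holds 36 CG dinucleotides. It holds no match on either strand to ACGTG (the core of hypoxia response elements), CACGTG (the E-box, which contains ACGTG), TGANNNNGC (the core of antioxidant response elements), TCACNCCAC, TATAAA or CCAAT. Among the 418 antisense windows 23.9% hold ACGTG and 44.0% hold TGANNNNGC, against 21.4% and 41.8% of all windows. The ENO1-AS1 window holds 1 match to TGANNNNGC. A match or its absence describes only these letters in this window.

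Few antisense RNAs changed with FAC. With a model across all genes and an adjusted p under 0.05, 9 of the 478 passed, 4 higher and 5 lower, which is 1.88%. Of all genes tested 3.73% passed, 1.88% higher and 1.85% lower. The groups did not overlap for 75 antisense RNAs (15.7%), with FAC above in 38 and below in 37, against 23.4% of all genes (10.4% above, 13.0% below). At an unadjusted p under 0.05 there were 59 (12.3%), against 17.2%. The median change was 0.009, beside -0.0041 over all genes, and the changes ran from -0.48 to 1.16. Of the 478, 293 (61.3%) were in the dimmest 33.3% of genes by mean intensity. Without those genes, 8 of the 185 antisense RNAs left passed (4.32%), beside 8.47% of the 9923 genes left, and 4 of these 8 were among the 9. The rest of the 9, NEBL-AS1, RAD21-AS1, ATP2A1-AS1, TFAP2A-AS1 and EPCIP-AS1, are themselves in the dimmest 33.3% and were not tested there.

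**Figure D1:**
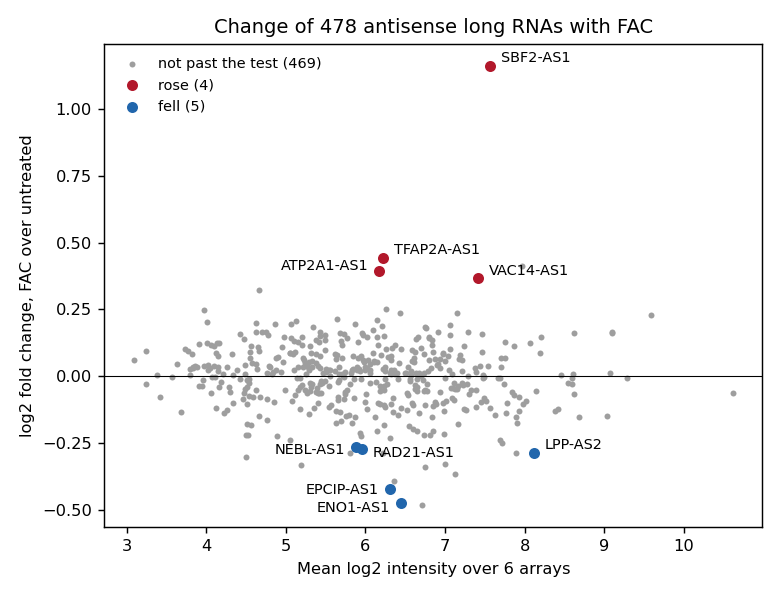
Each point is 1 of 478 antisense RNAs. The horizontal axis is its mean log2 intensity over 6 arrays and the vertical axis its log2 fold change, FAC over untreated. The 4 that rose are red and the 5 that fell blue, and SBF2-AS1 stands at 1.16 while all others lie between -0.48 and 0.44.

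SBF2-AS1 rose. It lies beside SBF2, a member of the myotubularin phosphatase family that has lost catalytic activity and whose mutation causes a form of Charcot-Marie-Tooth neuropathy. Its log2 intensity was 7.07, 6.95 and 6.92 in the untreated cultures and 8.03, 8.22 and 8.17 in the FAC cultures. All 3 FAC cultures lay far above all 3 untreated cultures, and the change of 1.16 ± 0.07 (SE) corresponds to 2.24-fold (adjusted p = 0.000619). It was the only antisense RNA past 1.5-fold, and it passed under all 14 alternative settings, with changes from 1.12 to 1.22. SBF2 read 9.60, 9.57 and 9.66 in the untreated cultures and 9.48, 9.52 and 9.40 in the FAC cultures. Its groups did not overlap, with FAC below, but its change of -0.14 ± 0.06 did not pass (adjusted p = 0.246).

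ENO1-AS1 fell. It shares its start region with ENO1, the glycolytic enolase, which had no named probe. It read 6.81, 6.63 and 6.61 in the untreated cultures and 6.21, 6.25 and 6.17 in the FAC cultures. The untreated cultures were higher than the FAC cultures without overlap, and the change was -0.47 ± 0.07 (adjusted p = 0.0116). It passed under 12 of 14 alternatives, the exceptions being every probe of the table as the tested set and the fit without FAC replicate 1.

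The other 3 antisense RNAs that rose belong to unlike sense genes. TFAP2A-AS1 lies beside TFAP2A, the transcription factor AP-2 alpha, which had no named probe, and their start windows share 26 bases. It read 5.98, 5.92 and 6.09 in the untreated cultures and 6.57, 6.40 and 6.35 in the FAC cultures. The groups did not overlap, and the change was 0.44 ± 0.08 (adjusted p = 0.0227). ATP2A1-AS1 shares 221 bases of its start window with ATP2A1, the SERCA1 calcium pump, which also had no named probe. It read 6.03, 6.09 and 5.80 in the untreated cultures and 6.36, 6.40 and 6.34 in the FAC cultures, without overlap, a change of 0.39 ± 0.08 (adjusted p = 0.0381). VAC14-AS1 lies within the span of VAC14, a scaffold of the PIKfyve lipid kinase complex. It read 7.17, 7.33 and 7.21 in the untreated cultures and 7.60, 7.51 and 7.69 in the FAC cultures, again without overlap, a change of 0.37 ± 0.07 (adjusted p = 0.0314). VAC14 itself gave 0.05 ± 0.06 (adjusted p = 0.721), with overlapping groups. The difference between VAC14-AS1 and VAC14 changed by 0.32 ± 0.10 and did not pass (adjusted p = 0.115).

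Besides ENO1-AS1, 4 antisense RNAs fell. EPCIP-AS1 read 6.61, 6.46 and 6.47 in the untreated cultures and 6.11, 6.22 and 5.94 in the FAC cultures. It fell by 0.42 ± 0.08 (adjusted p = 0.035) without overlap between the groups, while EPCIP gave 0.18 ± 0.10 (adjusted p = 0.426). RAD21-AS1, opposite the gene of a cohesin subunit, read 6.18, 6.06 and 6.05 in the untreated cultures and 5.83, 5.79 and 5.85 in the FAC cultures. Its change was -0.27 ± 0.06 (adjusted p = 0.043), and RAD21 gave 0.02 ± 0.05 (adjusted p = 0.873). The groups of RAD21-AS1 did not overlap and those of RAD21 did.

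LPP-AS2 and NEBL-AS1 were the calls nearest to the threshold. LPP-AS2 shares 168 bases of its start window with LPP, a LIM domain protein of focal adhesions. It read 8.29, 8.21 and 8.27 in the untreated cultures and 8.05, 7.98 and 7.87 in the FAC cultures, a change of -0.29 ± 0.06 (adjusted p = 0.0492), and LPP gave -0.12 ± 0.10 (adjusted p = 0.575). NEBL-AS1 lies in the span of NEBL, which encodes the actin-binding protein nebulette. A start window of NEBL-AS1 shares all 300 of its bases with start windows of NEBL, and another shares 0. NEBL-AS1 read 5.95, 6.03 and 6.07 in the untreated cultures and 5.80, 5.70 and 5.76 in the FAC cultures, a change of -0.26 ± 0.06 (adjusted p = 0.0493). NEBL read 5.96, 6.15 and 6.23 in the untreated cultures and 5.84, 5.68 and 5.94 in the FAC cultures. The groups of NEBL did not overlap either, with FAC below, and its change of -0.29 ± 0.09 was of like size but did not pass (adjusted p = 0.158). Just outside the threshold, MAMDC2-AS1 had the lowest change of all antisense RNAs, at -0.48 ± 0.11 (adjusted p = 0.0523), followed by CBR1-AS1 (adjusted p = 0.0651) and STARD4-AS1 (adjusted p = 0.0684).

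**Figure D2:**
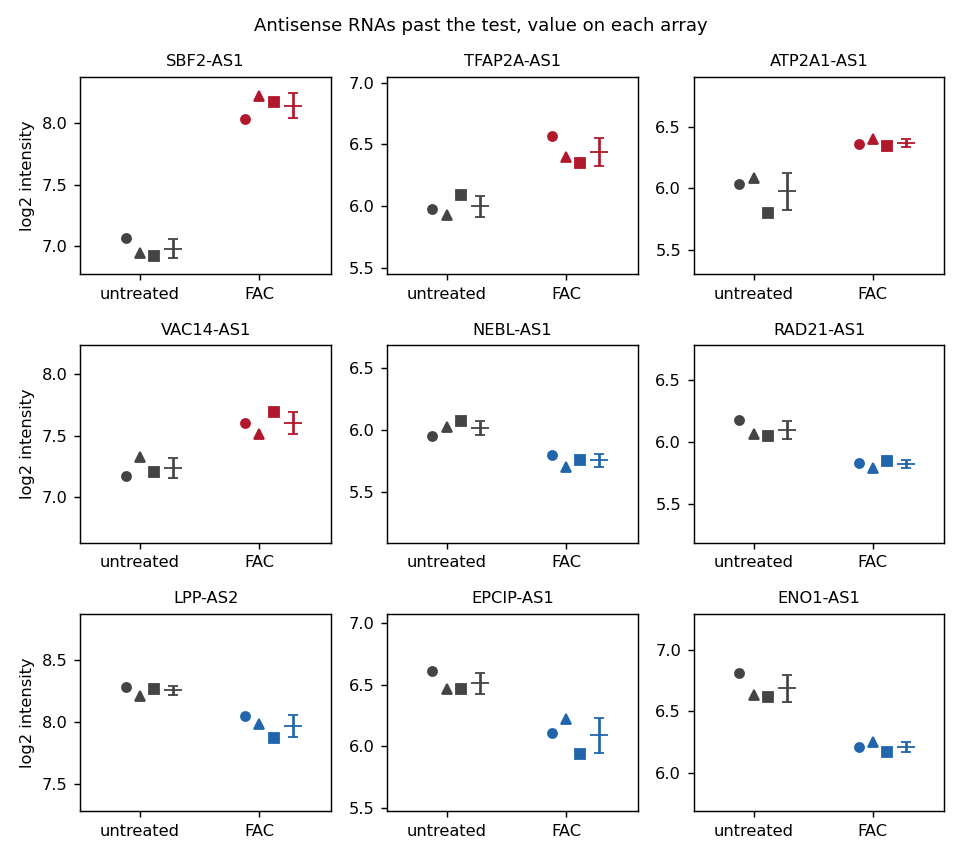
Log2 intensity of the 9 antisense RNAs past the test on each of 6 arrays. Circles, triangles and squares are replicates 1, 2 and 3 of each group, which are not paired. The bar beside each group is its mean ± SD (n = 3), and every panel spans the same number of log2 units. In all 9 panels the groups are apart, and the gap is widest for SBF2-AS1.

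Apart from SBF2-AS1 and ENO1-AS1, each of these calls was lost on leaving out any of 5 or 6 single arrays. Without untreated replicate 1, 2 or 3, respectively 2, 4 and 2 of the 9 still passed. Without FAC replicate 1, 2 or 3, respectively 1, 3 and 3 still passed, and the 1 left without FAC replicate 1 was SBF2-AS1. Across the alternatives that could be fitted, VAC14-AS1 passed in 7 of 14, TFAP2A-AS1, ATP2A1-AS1 and EPCIP-AS1 in 6 of 13 each, RAD21-AS1 and NEBL-AS1 in 4 of 13 each, and LPP-AS2 in 3 of 14. Those with 13 alternatives are among the dimmest genes and were left out by the filter on dim genes.

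The calls are given by the role of the sense gene, to be read beside the 1.88% of all antisense RNAs and 3.73% of all genes that passed, and the 12.3% and 17.2% at an unadjusted p under 0.05. Of 33 antisense RNAs beside genes of channels, transporters and membrane traffic, SBF2-AS1 and ATP2A1-AS1 rose and NEBL-AS1 fell (9.09% called). NEBL-AS1 stands in that list although nebulette binds actin. Of 43 beside genes of transcription and chromatin, TFAP2A-AS1 rose and none fell (2.33%). Of 30 beside genes of matrix, adhesion and cytoskeleton, LPP-AS2 fell (3.33%), and of 41 beside genes of RNA, protein and genome maintenance, RAD21-AS1 fell (2.44%). None of 44 beside genes of signalling, receptors and kinases passed in limma's test, with 5 at an unadjusted p under 0.05 (11.4%). None of 23 beside genes of metabolism, mitochondria and redox passed, with 3 at that level (13.0%). There the smallest p was that of ELOVL2-AS1, beside a fatty acid elongase, at 0.32 ± 0.08 (adjusted p = 0.0818). The remaining 261 belonged to no role list and held ENO1-AS1, EPCIP-AS1 and VAC14-AS1. ENO1 is a glycolytic enzyme and VAC14 a scaffold of a lipid kinase complex, so the role lists are incomplete. These shares hold only for the genes listed.

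By suffix, 8 of 431 -AS1 RNAs and 1 of 32 -AS2 RNAs passed. No -AS3 or -AS4 RNA passed among 12 and 3, with 1 of each at an unadjusted p under 0.05 in limma's test. For comparison, 5 of 458 LINC RNAs (1.09%), intergenic long RNAs named by number, passed. Of 134 RNAs named as intronic, divergent or overlapping transcripts of a gene, 5 passed (3.73%), all lower. Differences between these classes were not tested.

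More sense genes than antisense RNAs passed, most of them lower. Of the 303 sense genes, 17 passed (5.61%), 4 higher and 13 lower, against 3.73% of all genes. The groups did not overlap for 93 of them (30.7%), with FAC above in 40 and below in 53, against 23.4% of all genes. The split between higher and lower moved with the scaling. With quantile normalization 9 of 20 were higher and 11 lower, and with arrays centred on their medians 2 of 14 were higher and 12 lower. The median change of the 303 was -0.01. In the role lists, RASAL2 fell and ITPK1 rose among 27 sense genes of signalling, PCDH9 and CFAP44 fell among 22 of matrix, adhesion and cytoskeleton, and PCNA and USP2 rose among 28 of RNA, protein and genome maintenance. None passed among 23 of transcription, 12 of channels and 13 of metabolism, with 2 (8.7%), 2 (16.7%) and 4 (30.8%) at an unadjusted p under 0.05, against 17.2% of all genes.

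Of the 13 sense genes that fell, 10 belong to no role list, among them NECTIN3, a cell adhesion molecule, and LOXL2, which cross-links collagen. The role lists are thus incomplete, and their counts do not show which roles fell. PCDH9, a protocadherin, read 7.67, 7.82 and 7.99 in the untreated cultures and 7.16, 7.08 and 7.00 in the FAC cultures. Every FAC value was below every untreated value, and the change was -0.75 ± 0.09 (adjusted p = 0.00665). A second, dimmer PCDH9 probe gave 0.08, so the probes disagree, and with the mean of both the change was -0.34 and still passed. LDLRAD4, an inhibitor of TGF-beta signalling, read 8.16, 8.02 and 8.07 in the untreated cultures and 7.51, 7.66 and 7.58 in the FAC cultures. It fell by 0.50 ± 0.06 (adjusted p = 0.00804), without overlap. LDLRAD4 and PCDH9 passed under all 14 alternatives, the only sense genes to do so.

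HHIP, an antagonist of hedgehog ligands at the cell surface, read 5.32, 6.01 and 5.80 in the untreated cultures and 4.99, 4.97 and 4.89 in the FAC cultures. The untreated cultures were spread widely but stayed above the FAC cultures, and the change was -0.76 ± 0.15 (adjusted p = 0.0389), a call kept in 6 of 13 alternatives. VLDLR, a lipoprotein receptor, read 10.14, 10.06 and 10.24 in the untreated cultures and 9.73, 9.73 and 9.66 in the FAC cultures, a change of -0.44 ± 0.06 (adjusted p = 0.0114) without overlap. NECTIN3, a cell adhesion molecule, read 10.66, 10.57 and 10.56 in the untreated cultures and 10.28, 10.19 and 10.14 in the FAC cultures, a change of -0.39 ± 0.06 (adjusted p = 0.0166) without overlap. LOXL2, which cross-links collagen, fell by 0.29 ± 0.06 (adjusted p = 0.0396). RASAL2, a GTPase-activating protein for Ras, fell by 0.29 ± 0.06 (adjusted p = 0.0431). PRICKLE2, of the planar cell polarity pathway, gave -0.32 ± 0.05 (adjusted p = 0.019), but its second probe gave 0.08. With the mean of both probes PRICKLE2 gave -0.12 and did not pass.

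The other sense genes that fell were BCL10, an adaptor of NF-kappaB signalling, at -0.27 ± 0.05, and NREP at -0.37 ± 0.07. They also included HM13, the signal peptide peptidase, at -0.25 ± 0.05, and CFAP44, a protein of the ciliary axoneme, at -0.33 ± 0.07. The last was PCED1B at -0.41 ± 0.08. Their adjusted p-values were 0.0257, 0.0272, 0.0389, 0.048 and 0.0293. Of the 4 that rose, USP2, a deubiquitinase, read 6.94, 6.69 and 6.76 in the untreated cultures and 7.22, 7.17 and 7.38 in the FAC cultures, a change of 0.46 ± 0.08 (adjusted p = 0.0296). PCNA, the sliding clamp of DNA replication, rose by 0.26 ± 0.05 (adjusted p = 0.0389), ITPK1, an inositol phosphate kinase, by 0.27 ± 0.05 (adjusted p = 0.0271), and PHACTR2, a regulator of phosphatase and actin, by 0.26 ± 0.05 (adjusted p = 0.035). Without untreated replicate 1, 2 or 3, respectively 6, 5 and 3 of the 17 sense genes still passed, and without FAC replicate 1, 2 or 3, respectively 3, 4 and 3.

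In none of the 314 pairs did both members pass. The antisense RNA passed in 6 pairs, the sense gene in 19 and neither in 289. Where the sense gene fell, in 15 pairs, the antisense value was also lower in 10, and the antisense groups were apart in 2. Of all antisense RNAs with a measured sense gene, 17.5% had groups apart. Where the sense gene rose, in 4 pairs, the antisense value was higher in all 4, each by 0.12 or less. Over all pairs, 174 (55.4%) had the same sign, and the correlation of the changes was r = 0.12 (Spearman's rho = 0.19, n = 314). For the 1236 other pairs of measured genes that overlap on opposite strands or start within 5000 bases of each other, 51.0% had the same sign and r was 0.15 (rho = 0.06). These correlations are descriptions, because all pairs share the same 6 arrays. The sources do not say whether each probe reads only 1 strand, so in overlapping stretches signal from the partner cannot be told apart from the transcript's own.

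**Figure D3:**
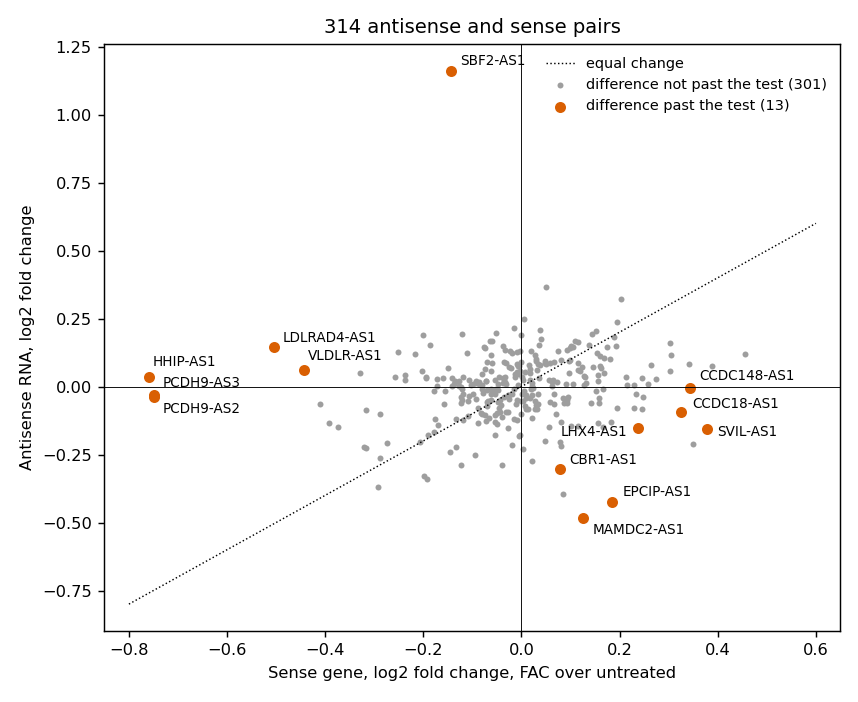
Each point is 1 of 314 pairs. The horizontal axis is the log2 fold change of the sense gene and the vertical axis that of its antisense RNA, both FAC over untreated. The dotted line is equal change, and orange marks the 13 pairs whose difference passed the test. SBF2-AS1 is alone at the top, HHIP and PCDH9 are far left with their antisense RNAs near 0, and MAMDC2-AS1 is lowest.

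A direct test asked whether the antisense value minus the sense value moved with FAC. It passed for 13 of the 314 pairs (4.14%), against 4.58% of all 1550 pairs tested. In 6 the antisense RNA went up relative to the sense gene and in 7 down, and in 11 of the 13 the members had opposite signs. Choosing pairs by an unequal change favours opposite signs, so that count is no separate result. Some of these signs belong to changes near 0, such as -0.004 for CCDC148-AS1 and 0.04 for HHIP-AS1. The sense gene had passed by itself in 5 of the 13 pairs and the antisense RNA in 2. In the other 6, neither member passed alone. An exact permutation test of 3 against 3 cannot go below 0.1 (2-sided), and each of the 13 pairs reached that value.

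The widest difference was that of SBF2-AS1 and SBF2, at 1.31 ± 0.09 (adjusted p = 4e-05), and it passed under every alternative that gives a test across pairs. The next was HHIP-AS1 and HHIP, whose difference changed by 0.79 ± 0.12 (adjusted p = 0.00651). HHIP-AS1 read 6.43, 6.61 and 6.53 in the untreated cultures and 6.56, 6.57 and 6.54 in the FAC cultures. Its groups overlapped almost fully, and its change was 0.04 ± 0.06, although the start windows of the pair share the 236 capital bases printed above. This difference too passed under every such alternative that could be fitted. HHIP is among the dimmest genes, so the filter on dim genes left this pair out. The pair's spans do not overlap, so the strand limit does not touch it.

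RASAL2-AS1 shows the other outcome for a shared start. It read 7.29, 7.15 and 7.48 in the untreated cultures and 6.80, 7.03 and 6.98 in the FAC cultures. The groups did not overlap, but the change of -0.37 ± 0.10 did not pass (adjusted p = 0.0909). RASAL2 read 10.40, 10.49 and 10.41 in the untreated cultures and 10.06, 10.15 and 10.22 in the FAC cultures, also without overlap. The difference between them changed by -0.08 ± 0.11 (adjusted p = 0.745), so no unequal change was detected at this precision, and its sign turned without untreated replicate 3. Over the 45 pairs whose start windows share bases, 24 (53.3%) had the same sign and r was 0.24, and 1 difference passed, that of HHIP.

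In 4 further pairs the sense gene fell and the antisense RNA did not pass. PCDH9-AS2 gave -0.04 ± 0.09 and PCDH9-AS3 -0.03 ± 0.07, against -0.75 ± 0.09 for PCDH9, and the differences changed by 0.71 ± 0.13 (adjusted p = 0.0129) and 0.72 ± 0.13 (adjusted p = 0.0124). Both antisense RNAs are among the dimmest genes, they share their sense gene, and with the mean of both PCDH9 probes the differences were 0.30 and 0.31 and did not pass. LDLRAD4-AS1 read 6.01, 5.81 and 6.03 in the untreated cultures and 6.11, 5.94 and 6.25 in the FAC cultures, with overlapping groups. Its difference from LDLRAD4 changed by 0.65 ± 0.11 (adjusted p = 0.01). Of the alternatives that could be fitted, that call was lost only without FAC replicate 1, at 0.61 (adjusted p = 0.0672). The filter on dim genes left this pair out. VLDLR-AS1 gave 0.06 ± 0.09, and its difference from VLDLR changed by 0.50 ± 0.09 (adjusted p = 0.0156). That call was lost without untreated replicate 1 or 3 and without FAC replicate 1 or 2.

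In 7 pairs the antisense RNA went down relative to the sense gene. EPCIP-AS1 and EPCIP differed by -0.61 ± 0.14 (adjusted p = 0.0424), a call lost without any one array except FAC replicate 2. MAMDC2-AS1 read 6.75, 7.10 and 7.01 in the untreated cultures and 6.46, 6.62 and 6.34 in the FAC cultures, while MAMDC2, a secreted MAM domain protein, read 12.22, 12.13 and 12.24 in the untreated cultures and 12.33, 12.36 and 12.28 in the FAC cultures. Both had groups apart, in opposite directions, and the difference changed by -0.61 ± 0.11 (adjusted p = 0.0156). It was lost without untreated replicate 3, FAC replicate 1 or FAC replicate 3.

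SVIL-AS1 and SVIL, the gene of the actin-binding protein supervillin, meet at their 3′ ends. SVIL-AS1 read 8.80, 8.69 and 8.77 in the untreated cultures and 8.58, 8.62 and 8.59 in the FAC cultures, and SVIL read 9.55, 10.01 and 9.73 in the untreated cultures and 10.12, 10.15 and 10.16 in the FAC cultures. SVIL-AS1 was lower in every FAC culture and SVIL higher, and the difference changed by -0.53 ± 0.13 (adjusted p = 0.0428). LHX4-AS1 lies within the span of LHX4, a LIM homeobox transcription factor, and gave -0.15 ± 0.06 against 0.24 ± 0.06, both without overlap, a difference of -0.39 ± 0.09 (adjusted p = 0.0365). CCDC18-AS1 gave -0.09 ± 0.10 against 0.33 ± 0.08 for the coiled-coil gene CCDC18, a difference of -0.42 ± 0.08 (adjusted p = 0.0186). CBR1-AS1, opposite carbonyl reductase 1, gave -0.30 ± 0.07 against 0.08 ± 0.06, a difference of -0.38 ± 0.09 (adjusted p = 0.0464). CCDC148-AS1 gave -0.00 ± 0.08 against 0.34 ± 0.08 for CCDC148, a difference of -0.35 ± 0.08 (adjusted p = 0.0409). In none of the pairs from SVIL-AS1 to CCDC148-AS1 did either member pass alone. Whether their calls held under the alternatives was not followed pair by pair. Leaving out 1 array gave 4 to 10 called differences over all symbol pairs.

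**Figure D4:**
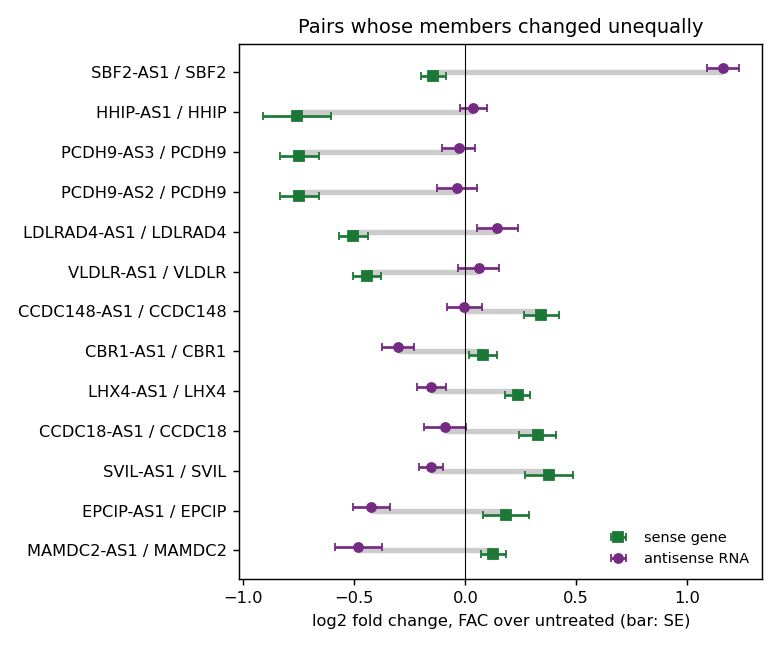
Log2 fold change, FAC over untreated, of the antisense RNA (purple circles) and the sense gene (green squares) for the 13 pairs whose difference passed the test, with bars for SE (n = 3 arrays a group). The 6 pairs at the top have the antisense RNA relatively higher and the 7 below relatively lower, and SBF2-AS1 spans the widest gap, 1.31.

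The layout of the pair could be read from RefSeq strands for 217 pairs, and in all 217 the members lie on opposite strands. In 85 pairs 1 member lies within the other, and r between the changes was 0.13. In 64 the 5′ ends overlap, with r = 0.34, and in 29 the starts diverge without overlap, with r = 0.17. In 35 the 3′ ends overlap, as in SBF2-AS1, with r = -0.25, and -0.20 without SBF2-AS1. The remaining 4 lie further apart. Calls of unequal change fell on 3 of the 35 pairs with 3′ overlap (SBF2-AS1, SVIL-AS1 and CCDC148-AS1), on 1 of the 64 with 5′ overlap (VLDLR-AS1), on 4 of the 85 with 1 member inside the other, on 1 of the 29 that diverge (HHIP-AS1) and on 1 of the 4 further apart. Among other opposite-strand neighbours r was 0.00 for 318 with 3′ overlap (rho = -0.03), 0.25 for 224 with 5′ overlap (rho = 0.09), 0.27 for 163 with 1 inside the other (rho = 0.13) and 0.17 for 530 that diverge (rho = 0.08). Whether r differs between layouts was not tested.

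In 13 of the 314 pairs both members had an unadjusted p under 0.05 in limma's test, a set picked after the values were seen. That level was reached by 12.1% of the antisense RNAs in pairs and 22.4% of the sense genes. Some such pairs would thus arise without any link, and whether 13 is more than that was not tested. Both were higher in 3 (DDC-AS1, ELOVL2-AS1 and TNS2-AS1), both lower in 5 (CCNT2-AS1, NEBL-AS1, PRICKLE2-AS3, RASAL2-AS1 and TAPT1-AS1) and opposite in 5 (DPYD-AS1, LHX4-AS1, PXN-AS1, SBF2-AS1 and SVIL-AS1). CCNT2-AS1 and CCNT2, a cyclin of the elongation factor P-TEFb, diverge from a shared start and gave -0.20 and -0.21. PXN-AS1 and PXN, the gene of the focal adhesion protein paxillin, overlap at their 3′ ends and gave 0.19 and -0.20, and their difference of 0.39 did not pass (adjusted p = 0.0654).

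The antisense RNAs whose values over the 6 arrays most resembled those of SBF2-AS1 were ATP2A1-AS1 (r = 0.92), VAC14-AS1 (r = 0.91), ITGB2-AS1 (r = 0.91), RAMP2-AS1 (r = 0.90) and JRKL-AS1 (r = 0.90). All of these share the step between the groups. With the group means removed, r was 0.37, -0.37, 0.91, 0.85 and 0.09. ITGB2-AS1, RAMP2-AS1 and JRKL-AS1 had groups apart with FAC above and changes of 0.25 ± 0.07, 0.18 ± 0.06 and 0.17 ± 0.06, and none of these 3 passed.

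Of 48 listed genes that handle double-stranded RNA or take part in antisense decay and silencing, 25 were measured, and 2 rose and none fell in limma's test, with 9 at an unadjusted p under 0.05. These are 8% and 36% of the list, beside 3.73% and 17.2% of all genes. TLR3, an endosomal sensor of double-stranded RNA, read 6.85, 7.11 and 7.11 in the untreated cultures and 7.62, 7.54 and 7.45 in the FAC cultures, a rise of 0.52 ± 0.09. EZH2, the methyltransferase of Polycomb complex 2, read 8.40, 8.72 and 8.46 against 9.04, 8.98 and 8.96, a rise of 0.47 ± 0.08. Both had groups apart. The cytoplasmic sensors IFIH1 and RIGI gave 0.17 and 0.01, the kinase EIF2AK2 gave 0.04, and the nuclease XRN1 gave -0.09, and none of these passed. EXOSC5, DGCR8, DIS3 and EXOSC2 gave -0.25, -0.19, -0.17 and -0.16, each with groups apart and FAC below, and did not pass either. DHX58, EXOSC8 and SUZ12 gave 0.17, 0.13 and 0.10, each with groups apart and FAC above, and did not pass. Of the 25, 8 were higher and 17 lower, and the median was -0.04. The groups did not overlap for 11 (44%), with FAC above in 5 and below in 6, against 23.4% of all genes.

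Arrays correlated at 0.991 to 0.995 over all 53617 probes, named or not. Of 13 listed markers of retinal pigment epithelium 12 were measured, and 0 rose and 0 fell. RLBP1 gave 0.31 ± 0.08 (adjusted p = 0.0843) with FAC above, and MITF -0.15 ± 0.06 (adjusted p = 0.215) with FAC below. Both had groups apart, and the groups of the other measured markers of this list overlapped. RPE65 and BEST1 were among the dimmest genes in both groups. The summed log2 level of the 12 ran from 99.1 to 102 in untreated and 99.9 to 101 in FAC cultures. Opposite moves can cancel in such a sum. Untreated replicate 2 stood apart in the pigment genes TYR, at 6.88 against 7.97 and 7.86 in the other untreated cultures, and TYRP1, at 9.48 against 10.5 and 10.3. Without it SBF2-AS1 still passed, and 5 antisense RNAs passed in all. None of the measured markers of fibroblasts (1 of 4), blood and endothelium (3 of 6) or neurons and photoreceptors (3 of 5) passed. Among them SAG and GFAP gave 0.27 and 0.23 with FAC above, and SYT1 and CD68 -0.21 and -0.12 with FAC below. These had groups apart, and the part of other cells was not tested.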

How the data were processed

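The authors deposited 1 table of log2 intensities for 53617 probes on 6 arrays. The submitters' processing notes name RMA and Partek 6.6, without order or role, and RMA is a method that scales arrays to a common distribution. Platform annotation names 16098 probes with 1 symbol each, and the other 37519 are unnamed here. No detection calls or scan dates were used, so no limit of detection can be given, and 3 arrays a group limit the precision (median SE 0.07). The main test was 2-sided, from lmFit and eBayes of limma 3.58.1 (R 4.3.3). Its p-values were adjusted by Benjamini-Hochberg over 14884 genes, and adjusted values under 0.05 passed. Pair differences were tested the same way over 1550 pairs: the 314 symbol pairs and 1236 opposite-strand neighbours.

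The members, the lists and the rule for naming genes were chosen with earlier results of these data known. The rule names called antisense RNAs and sense genes with their partners, called pair differences, large changes outside the dimmest genes, and leading members of each list. Alternatives were a filter on dim genes, quantile normalization, median centring, an intensity trend with robust prior (robust prior alone for pairs), array weights, the mean of probes, every probe tested, a block for replicate number, and each array left out in turn. The procedures were tested on simulated data. Strand and window sequences came from RefSeq GRCh38.p14 tables, and all 478 antisense RNAs were found in the gene table. Same-numbered cultures did not deviate together (r of -0.02, -0.03 and -0.15).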

Additional observations from a re-analysis of the deposited data

How the results depend on the processing

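No antisense RNA or sense gene past the test reversed its direction under any alternative run. Nor did any called pair difference that was followed through the alternatives. The called differences of SVIL-AS1, LHX4-AS1, CCDC18-AS1, CBR1-AS1 and CCDC148-AS1 were not followed there. Among the pair differences followed, the sign turned for 6, none of which passed in any of these fits. PRICKLE2-AS3 minus PRICKLE2 turned to -0.11 with the mean of probes. Over the fits that leave out 1 array, the differences ran from -0.00916 to 0.162 for PRICKLE2-AS3, from -0.0191 to 0.158 for BCL10-AS1, from -0.0195 to 0.0814 for NEBL-AS1, from -0.0742 to 0.125 for TNS2-AS1, from -0.165 to 0.140 for RAMP2-AS1 and from -0.180 to 0.0225 for RASAL2-AS1, each minus its sense gene.

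The number of antisense RNAs that passed was 8 with the dimmest genes left out (4 of them among the 9 of the main test), 8 with quantile normalization (8 among the 9), 10 with median centring (8), 12 with an intensity trend and robust prior (7), 9 with array weights (8) and 9 with the mean of probes (9). The filter on dim genes gave 2 higher antisense calls, 27 sense genes, 840 genes in all and 7 pair differences, and it left 293 antisense RNAs untested. The trend with robust prior gave 33 sense genes and 1026 genes in all. Testing every probe, which adjusts over the whole table, left 1 antisense call (1 higher, 0 lower), 2 sense genes and 111 genes. With the replicate number as a block, 2 antisense calls remained (1 higher, 1 lower), with 4 sense genes and 184 genes in all, and the pairing check gave no sign that the numbers pair the cultures. Leaving out each array in turn gave 1 to 5 antisense calls (1 to 3 higher, 0 to 2 lower), 3 to 9 sense genes, 4 to 10 pair differences and 147 to 447 genes, against 9, 17, 13 and 555. The correlation of changes over pairs ran from 0.0612 to 0.143 in these fits, highest without untreated replicate 2. SBF2-AS1, PCDH9 and LDLRAD4 passed under every alternative, and SBF2 under none of 14. The causes of these moves were not tested beyond the smaller or larger number of genes or arrays that each setting tests. The limits are 3 cultures a group, 1 line, 1 dose and 1 time, no detection calls, and a strand reading of the probes that the sources do not state.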

Other observations

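Some antisense RNAs also neighbour a gene other than the one they are named for, and 54 such opposite-strand pairs were measured. These were looked at after their values were seen. SBF2-AS1 overlaps LINC02709 at their 5′ ends, and LINC02709 gave 0.29 ± 0.10 (adjusted p = 0.205) beside the 1.16 of SBF2-AS1. That difference changed by 0.87 ± 0.14 (adjusted p = 0.00651 over all pairs). STARD4-AS1 overlaps the 3′ end of NREP, and gave -0.29 beside -0.37 for NREP, which fell.

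Among the neighbours in these 54 pairs only IDI1, MVD, WLS and LRP11 rose and only NREP fell, so most did not pass. Of all genes 1.88% rose and 1.85% fell. The antisense RNA beside each riser did not pass. IDI1, isopentenyl diphosphate isomerase of cholesterol synthesis, rose by 0.38 beside 0.03 for IDI2-AS1. MVD, another enzyme of that pathway, rose by 0.33 beside 0.04 for SNAI3-AS1, which starts close to it on the other strand. WLS, which carries Wnt ligands to the cell surface, rose by 0.31 beside -0.09 for GNG12-AS1, and that difference passed at -0.40 (adjusted p = 0.0186). LRP11 rose by 0.51 beside 0.01 for RAET1E-AS1, whose SE of 0.14 is wide.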
